A study of Homo sapiens with 33 samples.

Results

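OVCAR4 ResA and OVCAR4 ResB are cisplatin-resistant derivatives of the human high-grade serous ovarian carcinoma cell line OVCAR4, and the comparison described here sets the 3 libraries of ResB against the 3 libraries of ResA. These 6 libraries were chosen by the line named in their labels, out of 33 mRNA sequencing libraries from 11 carcinoma cell lines. Per the study's methods, both lines were raised separately from OVCAR4 by short pulses of cisplatin, with recovery after each pulse and a dose that was stepped up over months, and neither was kept in cisplatin afterwards. Both lines therefore share the parent and the selecting drug. Each stands for 1 selection only, so a difference between them belongs to this pair of lines and not to a kind of treatment. The 3 libraries of OVCAR4 are given as reference levels and entered none of the tests reported for single genes.

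Cisplatin forms DNA adducts that are removed by nucleotide excision, Fanconi and recombination repair, and cells that outlive repeated exposure can differ in uptake, efflux and detoxification of the drug, in repair, or in the state of the cell. High-grade serous carcinoma is thought to arise mainly from the secretory epithelium of the fallopian tube, which derives from the Müllerian duct and keeps lineage factors of that duct. Notch signalling is one pathway that sets the state of such epithelia. Jagged and Delta ligands on one cell lead to cleavage of Notch receptors on its neighbour, and the freed receptor fragment joins RBPJ on DNA to switch on HES and HEY genes, which encode transcriptional repressors.

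The promoters of 4 HES and HEY genes are shown first, because HEY2 was the largest increase in ResB while HES1, HEYL and HES4, which belong to the same class of Notch targets, were lower there (for HES4 the call was lost without replicate 2, adjusted p = 0.1097). They are RefSeq sequences of GRCh38.p14 from 250 bases before to 50 bases after the annotated start, printed 5′ to 3′ along the gene's own strand. Capitals mark the RBPJ core motif TGGGAA or its reverse complement TTCCCA. The HEY2 window is chr6:125749382-125749681 on the plus strand, with matches at positions -213 and -3 from the start.
HEY2: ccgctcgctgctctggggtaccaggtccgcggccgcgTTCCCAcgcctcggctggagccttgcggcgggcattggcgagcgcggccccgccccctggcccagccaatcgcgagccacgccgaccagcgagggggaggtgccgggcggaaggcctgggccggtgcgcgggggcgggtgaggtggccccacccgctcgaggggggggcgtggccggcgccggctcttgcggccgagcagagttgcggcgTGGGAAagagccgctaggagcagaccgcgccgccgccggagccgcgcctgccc
The HES1 window is chr3:194135898-194136197 on the plus strand, with matches at -84 and -70.
HES1: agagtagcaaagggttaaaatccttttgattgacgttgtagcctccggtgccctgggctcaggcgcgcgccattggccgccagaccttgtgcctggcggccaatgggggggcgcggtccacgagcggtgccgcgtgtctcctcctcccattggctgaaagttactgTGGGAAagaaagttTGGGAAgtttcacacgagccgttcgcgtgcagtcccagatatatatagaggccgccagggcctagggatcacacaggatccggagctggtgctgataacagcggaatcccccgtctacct
The HEYL window is chr1:39639594-39639893 on the minus strand, with matches at -178 and -99.
HEYL: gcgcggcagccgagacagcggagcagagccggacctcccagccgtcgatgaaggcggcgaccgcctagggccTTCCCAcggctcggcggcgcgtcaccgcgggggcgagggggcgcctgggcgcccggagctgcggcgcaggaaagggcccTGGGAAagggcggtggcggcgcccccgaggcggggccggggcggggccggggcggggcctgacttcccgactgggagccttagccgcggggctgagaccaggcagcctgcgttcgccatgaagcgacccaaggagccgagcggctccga
The HES4 window is chr1:1000048-1000347 on the minus strand, with 1 match at -76.
HES4: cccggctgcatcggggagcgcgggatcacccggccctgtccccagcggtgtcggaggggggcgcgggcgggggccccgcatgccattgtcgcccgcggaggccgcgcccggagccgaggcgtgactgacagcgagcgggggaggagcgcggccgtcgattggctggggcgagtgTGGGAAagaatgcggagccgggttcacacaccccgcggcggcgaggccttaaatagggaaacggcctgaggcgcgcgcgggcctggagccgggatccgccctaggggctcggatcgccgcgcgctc
A search of both strands found the motif in 24.0% of the 34960 promoters in the table and in 21.9% of the promoters of tested genes. It was in 8 of 34 promoters (23.5%) of the 28 Notch pathway genes that the table held. A match describes these letters only, and binding was not measured.

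The 6 libraries held 22295034 to 35792962 estimated counts. Replicate 1 stood apart from replicates 2 and 3 in both lines. Mitochondrial rRNA took 9.23% of its counts in ResA and 13.1% in ResB against 2.02% to 2.47% in the others, and Pearson r across genes was 0.920 to 0.929 between replicate 1 and the others of its line against 0.989 and 0.990 between replicates 2 and 3. Replicate 1 of ResA also held 104 genes at 1 TPM or more that stayed under 0.1 TPM in the other 5 libraries, against 10 to 63 such genes for each of the others. The mesothelial gene MSLN was at 8.095, 0.548 and 0.446 TPM in ResA and 0.783, 0.594 and 0.314 TPM in ResB, and the fibroblast gene THY1 was at 9.96, 0.8003 and 0.669 TPM in ResA and 0.781, 0.802 and 0.975 TPM in ResB. Both were high in replicate 1 of ResA and neither was called (adjusted p = 0.131 and 0.306). TPM, the transcript abundance unit of the deposited table, is corrected for gene length and scaled to the same sum in every library. The 10 markers listed for high-grade serous carcinoma summed to 3328 to 3551 TPM in ResA and 2442 to 3079 TPM in ResB. Of these 10, 6 were called lower in ResB and 0 higher, with a median log2 fold change of -0.52, where 16.5% of all genes tested were called lower. Lower calls were 6, 4 and 6 without replicates 1, 2 and 3, and 4 with no replicate block. PAX8, the Müllerian transcription factor used to diagnose these tumours, was at 69.95, 76.5 and 85.03 TPM in ResA and 71.8, 74.1 and 77.7 TPM in ResB. It was not called (adjusted p = 0.656). The 7 endothelial markers summed to 0.45 to 1.91 TPM and the 9 leukocyte markers to 5.10 to 11.5 TPM, of which CD68 made up 3.798, 4.901 and 6.56 TPM in ResA and 4.48, 8.94 and 11.3 TPM in ResB. The 9 fibroblast markers summed to 19.5, 31.3 and 26.1 TPM in ResA and 6.89, 5.33 and 5.39 TPM in ResB. COL1A2 and COL3A1, collagen genes that define fibroblasts, were at or near 0 in all 6 libraries, and 4 of the 9 markers had 3 counts or fewer in each, so the higher sum of ResA came from LUM and, in replicate 1, THY1. Nothing in the labels says that replicates were separate cultures, so p-values measure only the spread between these libraries. In bulk RNA, fewer cells of a kind and less RNA per cell cannot be told apart.

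The whole-genome background against which each group of genes is read was as follows. Of 15911 genes tested with DESeq2 with the replicate number as a block, 32.8% were called at an adjusted p under 0.05, 16.2% higher and 16.5% lower in ResB. A change of at least 2-fold was called for 10.0%, with 731 genes higher and 863 lower. Where counts of calls are given with a replicate left out, the shares to set them against were 13.8%, 5.90% and 9.67% higher and 14.9%, 6.60% and 10.0% lower without replicates 1, 2 and 3. With no replicate block they were 5.96% higher and 6.97% lower. Calls of at least 2-fold were 9.11%, 6.53% and 7.30% without replicates 1, 2 and 3 and 8.21% with no block. All calls made up 28.7%, 12.5% and 19.7% without replicates 1, 2 and 3, and 12.9% with no block. Normalised counts of the lines did not overlap for 26.7% of tested genes. Overlap of single genes is given on TPM, which is scaled differently, so this share is only a rough guide to it. Fold changes are log2 of ResB over ResA with their standard error (SE), so a negative value means lower in ResB, and levels are TPM of replicates 1, 2 and 3 in that order. The plot of all groups shows where calls leaned to one side: lineage, epithelial, integrin and laminin, growth factor and respiratory chain genes were called lower more often than higher, and MHC, DNA repair and amino acid stress genes were called higher more often than lower. The groups were chosen with earlier results of these data known. An excess over all genes may come in part from that choice, which was not tested.

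**Figure D1:**
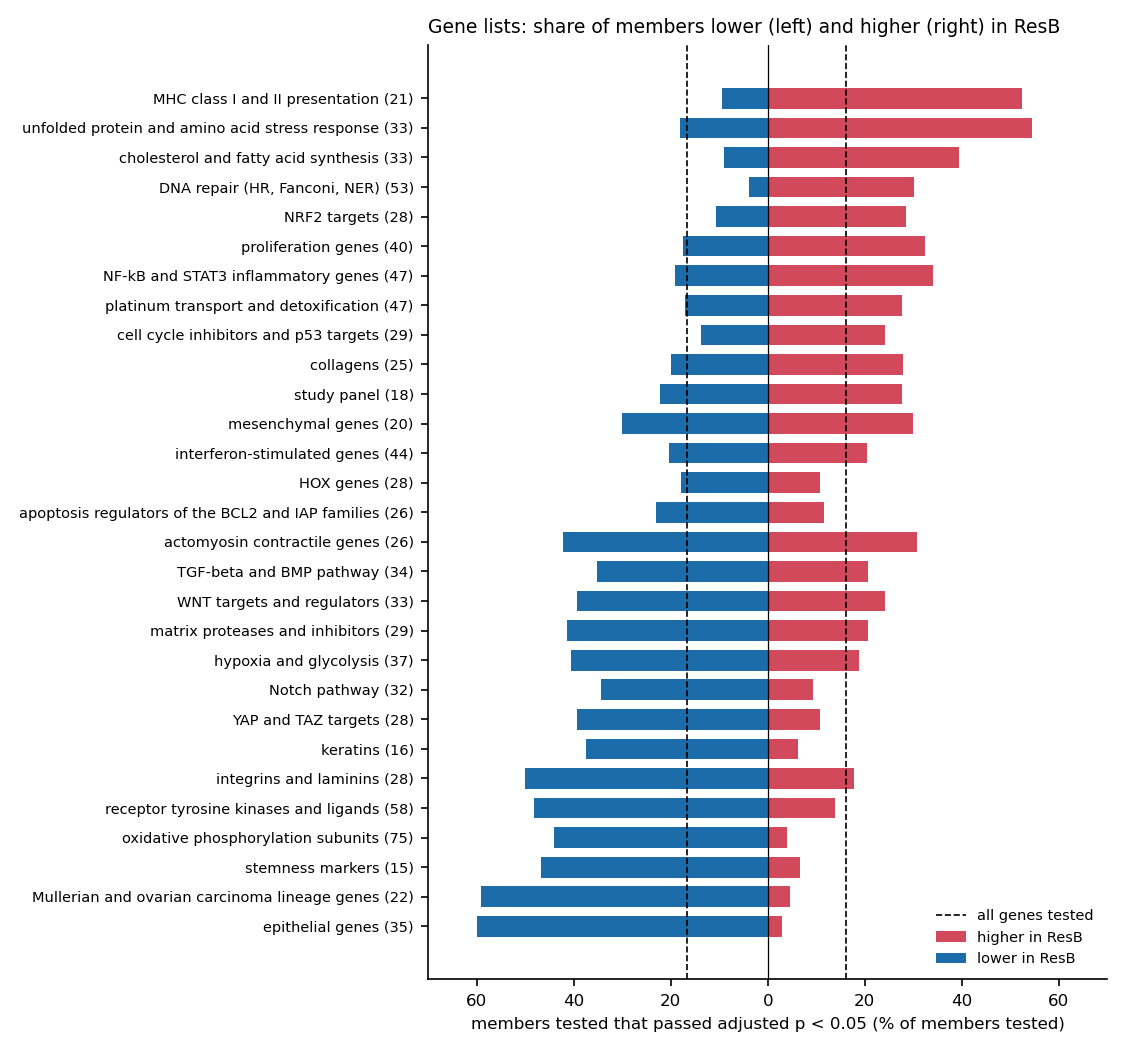
Share of the tested members of each gene group that DESeq2 called lower (left) or higher (right) in ResB than in ResA, in percent, with the share over all genes tested as dashed lines. Epithelial genes reached 60% lower against 16.5% of all genes, and DNA repair genes 30.2% higher against 16.2%, an excess not seen without replicate 2. The groups were chosen with earlier results of these data known.

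Genes of the Müllerian and ovarian carcinoma lineage were mostly lower in ResB. Of 22 tested, 13 were called lower and 1 higher, and the median log2 fold change was -0.97 against -0.00105 over all genes tested. Called lower were 12, 11 and 12 without replicates 1, 2 and 3, and 11 with no replicate block. EMX2, a homeobox factor of the Müllerian duct (GRCh38.p14 chr10:117542746-117549546, the build of all positions here), was at 77.4, 47.8 and 60.6 TPM in ResA and 0.0298, 0 and 0 TPM in ResB, with OVCAR4 at 79.03 ± 10.8 TPM (SD, n = 3). It was at the floor of 3 counts or fewer in every ResB library and at least 903-fold lower there than in ResA. Its antisense neighbour EMX2OS went from 18.1, 17.4 and 19.5 to 0.0215, 0.00809 and 0 TPM, and since strand use in the counting is not given in the sources used here, reads of the overlapping pair may be shared. MUC16, which encodes the CA125 antigen, was at 18.9, 15.5 and 17.3 TPM in ResA and 6.29, 8.202 and 4.54 TPM in ResB and differed by -1.52 ± 0.19 (adjusted p = 1.81e-14). SPON1 was at 83.8, 171 and 199.7 TPM in ResA and 31.7, 57.3 and 68.03 TPM in ResB (-1.54 ± 0.11), and GATA6, an endoderm and ovarian transcription factor, was at 8.66, 8.97 and 11.2 TPM in ResA and 4.33, 3.17 and 3.26 TPM in ResB (-1.47 ± 0.23). For all 3 genes the libraries of the lines did not overlap. The kallikrein KLK6 fell from 34.8, 31.2 and 28.97 to 5.68, 12.1 and 17.1 TPM. WFDC2, which encodes the serum marker HE4, was the one member called higher, at 195, 135 and 98.1 TPM in ResA and 450.1, 302 and 295 TPM in ResB (1.26 ± 0.13, adjusted p = 2.79e-19). The lineage factors PAX8 and SOX17 were not called, so the group did not move as one.

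Epithelial junction and keratin genes followed the same direction with smaller sizes. Of 35 epithelial genes tested, 21 were called lower and 1 higher, with a median of -0.36. The lower calls were 20, 13 and 17 without replicates 1, 2 and 3, and 10 with no replicate block. KRT19, a simple epithelial keratin (chr17:41523617-41528308), was at 582, 607 and 591 TPM in ResA and 48.96, 57.7 and 52.96 TPM in ResB. Every ResB library was lower than every ResA library in each pair, and the log2 fold change was -3.52 ± 0.08. OVCAR4 stood between them at 278 ± 16.6 TPM (SD, n = 3). KRT13 went from 9.77, 24.6 and 30.3 to 1.04, 0.645 and 0.631 TPM (-4.76 ± 0.45), and KRT17 from 156, 194 and 216 to 55.9, 49.7 and 56.1 TPM (-1.83 ± 0.15). Of 16 keratins, 6 were called lower and 1 higher. KRT23 ran the other way, at 17.9, 18.4 and 20.4 TPM in ResA and 133, 168 and 172 TPM in ResB (2.99 ± 0.11, adjusted p = 6.74e-174). The desmosomal cadherin DSC2 was at 25.7, 31.4 and 38.4 TPM in ResA and 3.44, 4.39 and 5.497 TPM in ResB (-2.91 ± 0.12), the mucin MUC1 at 16.6, 10.7 and 12.7 TPM in ResA and 2.86, 3.81 and 3.16 TPM in ResB (-1.90 ± 0.25) and the epithelial transcription factor EHF at 17.3, 27.02 and 32.3 TPM in ResA and 4.01, 4.899 and 5.604 TPM in ResB (-2.41 ± 0.16). None of these 3 overlapped between the lines. The adhesion gene CDH1, which encodes E-cadherin, was at 56, 112 and 128 TPM in ResA and 54.04, 113 and 134 TPM in ResB and was not called (adjusted p = 0.886). Of the mesenchymal genes, 6 of 20 were called higher and 6 lower (8, 3 and 3 higher and 5, 5 and 5 lower without replicates 1, 2 and 3). VIM, which encodes the mesenchymal filament vimentin, was itself lower, from 147, 122 and 132 to 74.3, 60.9 and 57.7 TPM (-1.09 ± 0.11). TNC, a matrix glycoprotein of remodelling tissue, was called higher, and COL6A2 went from 2.86, 4.97 and 3.65 to 9.34, 15 and 17.2 TPM (1.83 ± 0.20).

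Stem cell markers were called lower more often than higher. Of 15 tested, 7 were called lower and 1 higher (7, 3 and 5 lower without replicates 1, 2 and 3). LGR5, the R-spondin receptor and a WNT target (chr12:71439129-71586310), was at 18.8, 17.6 and 17.1 TPM in ResA and 0.429, 0.465 and 0.2397 TPM in ResB, with OVCAR4 at 20.4 ± 11.1 TPM (SD, n = 3). The difference of -5.65 ± 0.26 had an adjusted p of 1.09e-101. PROM1, which encodes CD133, was at 18.8, 22.1 and 27.7 TPM in ResA and 0.767, 1.399 and 1.62 TPM in ResB with OVCAR4 at 26.8 TPM, a difference of -4.31 ± 0.18. ALDH1A1, an aldehyde dehydrogenase, was at 7.02, 5.897 and 5.23 TPM in ResA and was listed at 0 in all 3 ResB libraries, at least 71.3-fold lower. The call (adjusted p = 2.96e-15) was lost without replicate 2 (adjusted p = 0.0767) and without replicate 3 (adjusted p = 0.0532). CD24 was the member called higher, at 194, 457 and 532 TPM in ResA and 308, 774 and 903 TPM in ResB (0.69 ± 0.08), where the lines overlapped but each same-numbered pair rose.

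The Notch pathway split by gene. Of 32 members tested, 11 were called lower and 3 higher, and the lower calls were 10, 7 and 9 without replicates 1, 2 and 3. The receptor NOTCH3 (chr19:15159038-15200995) was at 23.1, 38.8 and 39.6 TPM in ResA and 5.24, 7.76 and 7.36 TPM in ResB. OVCAR4 was at 20.7 ± 0.572 TPM (SD, n = 3). The lines did not overlap, and the difference was -2.34 ± 0.13 (adjusted p = 1.09e-73). The other abundant receptor, NOTCH2, was at 20.8, 60.6 and 73.4 TPM in ResA and 20.1, 71.4 and 77.1 TPM in ResB and was not called (adjusted p = 0.626), nor were NOTCH1 (adjusted p = 0.0757) and RBPJ (adjusted p = 0.7298). Among ligands, JAG2 went from 10.6, 11.8 and 10.8 to 3.07, 3.198 and 3.09 TPM (-1.85 ± 0.15). JAG1 went from 71.3, 143 and 189 to 31.6, 31.3 and 28.3 TPM (-2.07 ± 0.48), a call that was lost without replicate 2 (adjusted p = 0.0802). Among targets, NRARP, a feedback inhibitor, was at 19.8, 22.6 and 22.5 TPM in ResA and 2.47, 3.66 and 3.39 TPM in ResB (-2.81 ± 0.17), and HEYL was at 0.675, 2.29 and 2.57 TPM in ResA and 0, 0.122 and 0.0414 TPM in ResB (-5.38 ± 0.73). HES1 was at 624, 141 and 138 TPM in ResA and 161, 39.7 and 36.8 TPM in ResB: replicate 1 was high in both lines, so the ranges overlapped, yet each pair differed by a like amount and the log2 fold change was -1.93 ± 0.09 (adjusted p = 1.84e-102). HES4, shown above, went from 24.4, 14.9 and 10.6 to 11.7, 7.72 and 5.32 TPM (-0.96 ± 0.23), with an adjusted p of 0.1097 without replicate 2.

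HEY2 was the exception among the called HES and HEY genes and the largest increase of the comparison. Located at chr6:125749632-125761269, it was at 0.0242, 0 and 0.0245 TPM in ResA and 44.7, 64.6 and 61.3 TPM in ResB, and at 0.0986, 0.0832 and 0.0239 TPM in the 3 OVCAR4 libraries. All ResB libraries were thus high and the other 6 near 0, and ResB was at least 767-fold higher than ResA when the ResA libraries were set to the floor of 3 counts each. Its close relative HEY1 went the opposite way, from 3.68, 2.73 and 3.42 to 0.107, 0.732 and 0.486 TPM (-3.07 ± 0.58, adjusted p = 1.65e-06). DTX4, a Deltex ubiquitin ligase of the pathway, was also higher, at 4.51, 6.01 and 5.59 TPM in ResA and 6.79, 19.9 and 20.7 TPM in ResB (1.41 ± 0.23).

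**Figure D2:**
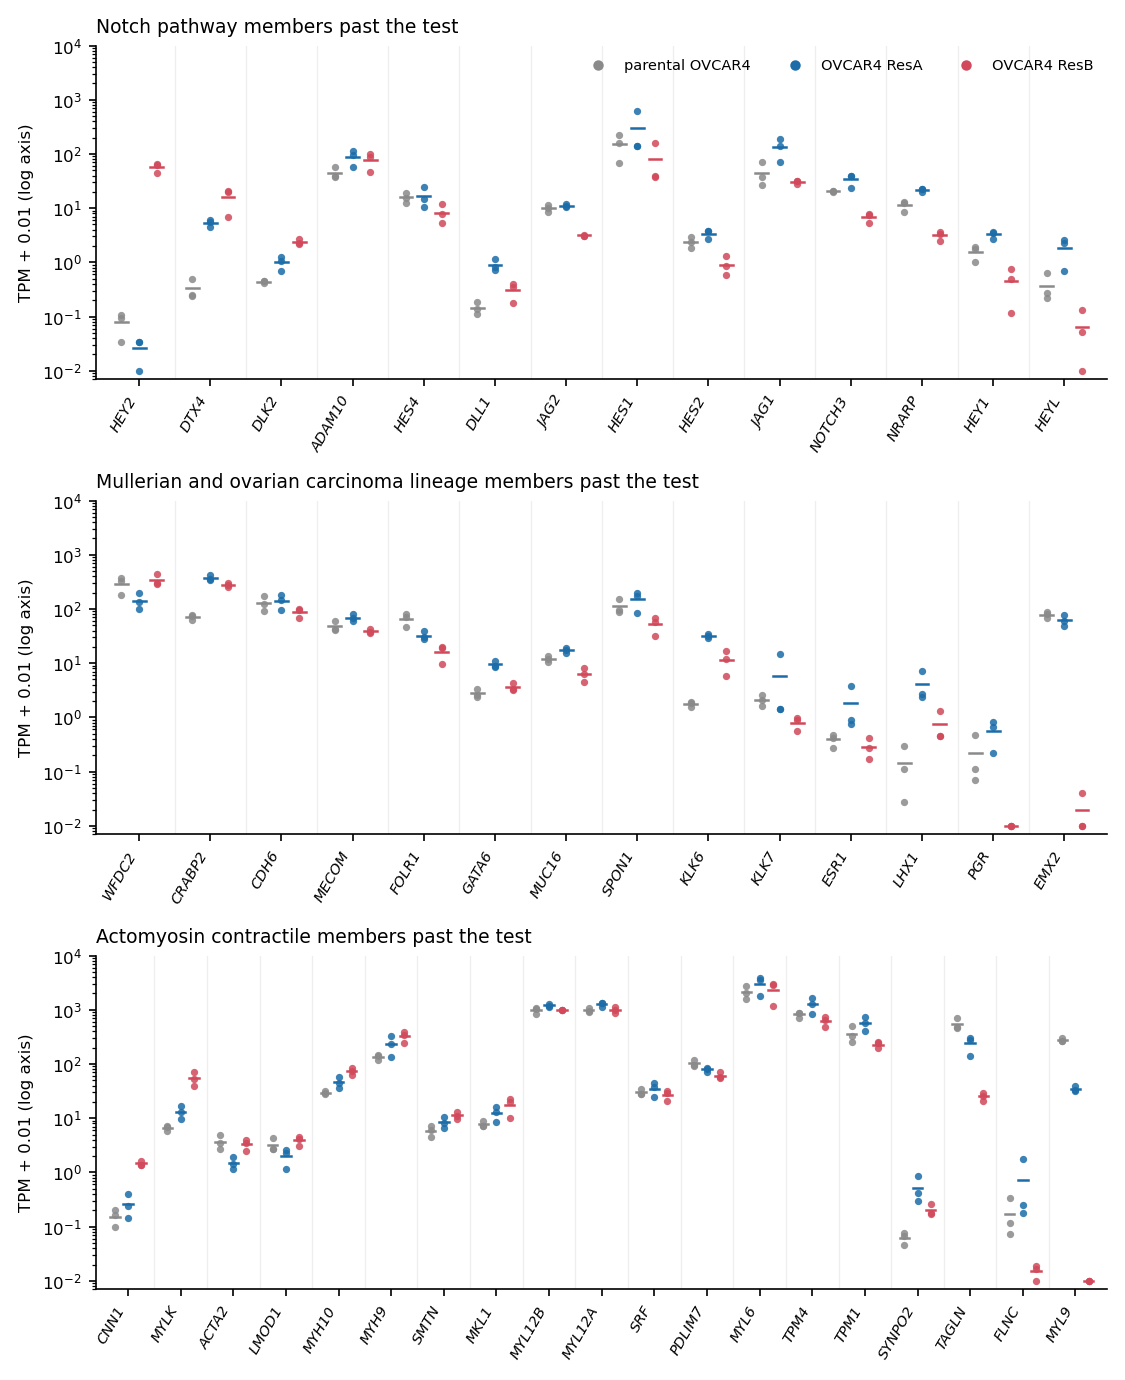
Level of called Notch, Müllerian lineage and actomyosin genes in each library, as TPM + 0.01 on a log axis, where each point is 1 of 3 libraries of OVCAR4, ResA or ResB and the short lines are means. HEY2 lies at 44.7 to 64.6 TPM in ResB and under 0.1 TPM in ResA, opposite to NOTCH3, HEYL and HEY1.

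Contractile genes changed member by member, with partners of one machine moving in opposite directions. Of 26 actomyosin genes tested, 11 were called lower and 8 higher. Lower calls were 13, 6 and 8 and higher calls 4, 3 and 3 without replicates 1, 2 and 3, and 5 and 5 with no replicate block. MYL9, the regulatory light chain of smooth muscle and non-muscle myosin (chr20:36541519-36551447), was at 31.7, 32.96 and 38.6 TPM in ResA and listed at 0 in all 3 ResB libraries, with OVCAR4 at 276 ± 20.9 TPM (SD, n = 3). It was at least 176-fold lower in ResB than in ResA. The near relatives MYL12A and MYL12B, which encode light chains of the same kind, stayed abundant, at 1345, 1113 and 1317 and 1299, 1137 and 1196 TPM in ResA against 1129, 883 and 1007 and 970.4, 992 and 983 TPM in ResB. Their differences were -0.36 ± 0.10 and -0.34 ± 0.07, and both calls were lost without replicate 2 (adjusted p = 0.226 and 0.132). TAGLN, the actin-binding protein transgelin (chr11:117199294-117207465), was at 138, 282 and 305 TPM in ResA and 20.4, 25.5 and 29.7 TPM in ResB, with OVCAR4 at 547 ± 124 TPM. It differed by -3.24 ± 0.18 (adjusted p = 3.71e-68). The tropomyosins TPM1 and TPM4 were lower, with log2 fold changes of -1.32 ± 0.14 and -1.03 ± 0.12. MYLK, the kinase that phosphorylates the light chain, was higher in every ResB library, at 16.7, 9.55 and 13.3 TPM in ResA and 72.3, 39.2 and 51.9 TPM in ResB (2.06 ± 0.10, adjusted p = 3.73e-91), and the heavy chain MYH10 was higher by 0.68 ± 0.10. CArG boxes, the sites of the serum response factor, were searched for on both strands. They were found in 8 of 49 promoters (16.3%) of the 24 actomyosin genes in the table and in 1.30% of all promoters. MYL9 and TAGLN had no promoter there, so the count says nothing of these genes. Promoters were not split by the direction of the call, and binding was not measured.

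Integrin and laminin genes were called lower more often than higher. Of 28 integrins and laminins tested, 14 were called lower and 5 higher, with a median of -0.45, and lower calls were 14, 10 and 11 without replicates 1, 2 and 3. LAMA1, a laminin alpha chain of embryonic basement membranes, was at 6.99, 15.4 and 15.2 TPM in ResA and 0.363, 0.649 and 0.712 TPM in ResB (-4.47 ± 0.17, adjusted p = 4.11e-147). The epithelial laminin chains LAMA3 and LAMB3 were lower, with log2 fold changes of -1.10 ± 0.09 and -1.92 ± 0.15, and ITGB4, an integrin chain that binds laminin, was at 10.7, 13.8 and 16.2 TPM in ResA and 3.63, 7.45 and 7.99 TPM in ResB (-1.18 ± 0.16). ITGA2, a collagen-binding integrin chain, was at 2.14, 1.99 and 2.95 TPM in ResA and 0.192, 0.606 and 0.912 TPM in ResB (-2.26 ± 0.37). Against this direction, ITGA9, a receptor for tenascin-C, was at 0.0312, 0.0325 and 0.0315 TPM in ResA and 0.441, 2.595 and 2.696 TPM in ResB. It was at the floor in ResA and at least 36-fold higher in ResB.

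Matrix proteases and their inhibitors changed in both directions. Of 29 proteases and inhibitors tested, 12 were called lower and 6 higher, with 11, 10 and 10 lower and 8, 5 and 5 higher without replicates 1, 2 and 3. Matrilysin, MMP7, was at 142, 377 and 415 TPM in ResA and 13.5, 30.2 and 41.02 TPM in ResB (-3.51 ± 0.13, adjusted p = 4.94e-154), and the membrane-bound MMP14 at 2.29, 7.01 and 6.94 TPM in ResA and 0.266, 0.42 and 0.317 TPM in ResB (-3.97 ± 0.39). KLK10, KLK5 and KLK8, neighbours in the kallikrein cluster of chromosome 19, were lower, with log2 fold changes of -4.51 ± 0.18, -3.19 ± 0.43 and -2.18 ± 0.35, with KLK10 at 92.3, 147 and 172 TPM in ResA and 5.65, 5.84 and 6.42 TPM in ResB. The median over the other genes of the 10-Mb window of KLK10 was -0.41. PLAU, the urokinase plasminogen activator, was higher, at 16.8, 13.5 and 13.6 TPM in ResA and 33.6, 39.9 and 47.5 TPM in ResB (1.42 ± 0.17), as were ADAMTS9, at 0.158, 0.207 and 0.235 TPM in ResA and 1.55, 3.398 and 4.31 TPM in ResB (3.84 ± 0.31), and MMP24, at 1.46, 3.62 and 3.59 TPM in ResA and 4.94, 16.9 and 17.99 TPM in ResB (2.08 ± 0.17). TIMP1, an inhibitor of matrix metalloproteases, was at 70.8, 42.4 and 44.6 TPM in ResA and 118, 75.4 and 87.01 TPM in ResB (0.80 ± 0.13).

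Growth factor receptors, ligands and binding proteins leaned lower. Of 58 tested, 28 were called lower and 8 higher, with a median of -0.48. Lower calls were 21, 19 and 24 without replicates 1, 2 and 3, and 21 with no replicate block. IGFBP3, which binds insulin-like growth factors (chr7:45912245-45921272), was at 2587, 2129 and 2266 TPM in ResA and 197, 136 and 153 TPM in ResB. OVCAR4 was at 305 ± 145 TPM (SD, n = 3), nearer to ResB, and the difference of -3.89 ± 0.11 between ResB and ResA had an adjusted p of 1.81e-261. IGFBP7 went from 329, 483 and 427 to 79.95, 88.7 and 89.5 TPM (-2.29 ± 0.14) and IGFBP2 from 581, 646 and 572 to 209.5, 233 and 219.5 TPM (-1.48 ± 0.09). IGFBP4 ran against them, from 53.4, 66.98 and 53.9 to 115, 194 and 207 TPM (1.49 ± 0.15), and the receptor IGF1R was higher by 1.34 ± 0.27. ERBB4 was at 8.33, 12.3 and 15.01 TPM in ResA and 0.583, 0.637 and 0.485 TPM in ResB (-4.39 ± 0.23), whereas ERBB2 was higher by 0.48 ± 0.10 (adjusted p = 0.0948 without replicate 2). FGF18 and its receptor FGFR3 were lower together, FGF18 from 201, 113 and 119 to 31.9, 16.7 and 16.9 TPM (-2.78 ± 0.12) and FGFR3 from 30.7, 27.8 and 21.1 to 5.597, 5.81 and 6.36 TPM (-2.17 ± 0.17). VEGFC, a lymphatic growth factor, was at 1.56, 0.932 and 0.871 TPM in ResA and listed at 0 in all 3 ResB libraries.

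WNT genes moved in both directions. Of 33 targets and regulators tested, 13 were called lower and 8 higher (14, 5 and 9 lower and 8, 5 and 6 higher without replicates 1, 2 and 3, 10 and 4 with no replicate block). CCND1, which encodes cyclin D1, a G1 cyclin and a target of several pathways, was at 125, 194 and 255 TPM in ResA and 12.9, 13.5 and 20.04 TPM in ResB. ResB was lower in every pair with no overlap of the lines, and the log2 fold change was -3.63 ± 0.15 (adjusted p = 2.38e-125). The feedback genes RNF43 and NOTUM were lower, with log2 fold changes of -1.27 ± 0.23 and -1.96 ± 0.35. Higher in ResB were the secreted antagonist SFRP1, at 4.51, 2.32 and 2.27 TPM in ResA and 21.7, 42.6 and 42.2 TPM in ResB (3.54 ± 0.56), the intracellular antagonist NKD1, at 0.0696, 0.146 and 0.255 TPM in ResA and 1.17, 2.42 and 2.57 TPM in ResB (4.13 ± 0.43), and the receptor FZD1, at 0.8495, 0.294 and 0.601 TPM in ResA and 3.61, 6.39 and 6.297 TPM in ResB (3.24 ± 0.40). AXIN2, a feedback target often used as a readout, was called lower, with a log2 fold change of -0.85 ± 0.27, a call lost without replicate 2 (adjusted p = 0.0754) and replicate 3 (adjusted p = 0.2402).

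The TGF-beta and BMP pathway had 12 members called lower and 7 higher of 34 tested (13, 8 and 9 lower and 5, 3 and 5 higher without replicates 1, 2 and 3, 8 and 3 with no replicate block). LEFTY1, an antagonist of Nodal, was at 3.895, 5.67 and 3.995 TPM in ResA and 0.0515, 0.0396 and 0.0372 TPM in ResB, at the floor in ResB and at least 34.7-fold lower. LTBP1, which holds latent TGF-beta in the matrix, was at 9.65, 14.3 and 17.5 TPM in ResA and 1.68, 3.89 and 4.12 TPM in ResB (-2.17 ± 0.16). The transducer SMAD3 and the repressor SKIL were lower, with log2 fold changes of -0.65 ± 0.10 and -1.97 ± 0.14, while both receptors were higher, TGFBR1 by 0.78 ± 0.12 and TGFBR2 by 0.94 ± 0.08. Of YAP and TAZ targets, 11 of 28 were called lower and 3 higher (14, 5 and 7 lower without replicates 1, 2 and 3, 5 with no replicate block). Beside IGFBP3 and VGLL3 (adjusted p = 0.0533 without replicate 2), described elsewhere, the largest decreases were NT5E, which encodes the ectonucleotidase CD73, at 8.86, 23.4 and 26.1 TPM in ResA and 0.332, 1.27 and 1.31 TPM in ResB (-4.41 ± 0.19), and F3, tissue factor, at 117, 123 and 167 TPM in ResA and 20.5, 17.2 and 15.2 TPM in ResB (-2.97 ± 0.19). AMOTL2 was higher, at 123, 189.9 and 195 TPM in ResA and 186, 364 and 389.5 TPM in ResB (0.81 ± 0.09).

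Inflammatory genes changed in both directions. Of 47 NF-kB and STAT3 genes tested, 16 were called higher and 9 lower (13, 9 and 11 higher and 8, 3 and 2 lower without replicates 1, 2 and 3, 10 and 6 with no replicate block). CXCL1, a neutrophil chemokine, was at 93.8, 146 and 175 TPM in ResA and 29.6, 17.5 and 25.1 TPM in ResB (-2.56 ± 0.47, adjusted p = 5.14e-07). IL8 was at 28.98, 114 and 124 TPM in ResA and 16.9, 18.2 and 22.2 TPM in ResB (-2.03 ± 0.61), with an adjusted p of 0.182 without replicate 3. IL6 was at 4.61, 5.73 and 4.68 TPM in ResA and 21.6, 12.9 and 24.8 TPM in ResB (1.90 ± 0.32), its receptor IL6R at 1.703, 2.16 and 2.27 TPM in ResA and 4.35, 5.25 and 5.52 TPM in ResB (1.25 ± 0.19), and STAT3, the factor that IL6 activates, at 30.2, 44.03 and 48.7 TPM in ResA and 55.98, 85.03 and 106 TPM in ResB (0.95 ± 0.09). SOCS3, a STAT3 target and feedback inhibitor, was at 26.2, 23.1 and 18.8 TPM in ResA and 75.9, 67.6 and 65.6 TPM in ResB (1.60 ± 0.12, adjusted p = 2.76e-41). IL6, IL6R, STAT3 and SOCS3 were higher in each ResB library than in any ResA library. The monocyte chemokine CCL2 was at 15.1, 13.7 and 22.1 TPM in ResA and 253, 117 and 112 TPM in ResB (3.11 ± 0.52), and OVCAR4 at 146 ± 26.04 TPM (SD, n = 3) was close to ResB. CXCL12 was at 4.498, 5.74 and 5.17 TPM in ResA and 10.2, 22.04 and 20.1 TPM in ResB (1.87 ± 0.18). STAT5B was higher by 1.39 ± 0.10, at 9.02, 12.6 and 13.4 TPM in ResA and 22.8, 34.04 and 37.01 TPM in ResB.

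MHC genes were called higher more often than lower, 11 against 2 of 21, but mostly by small amounts, and the higher calls were 6, 2 and 3 without replicates 1, 2 and 3 and 5 with no replicate block. HLA-B, a class I heavy chain, had the largest increase among the class I HLA genes, at 37.8, 92.9 and 68.7 TPM in ResA and 84.9, 199.6 and 189 TPM in ResB (1.21 ± 0.12, adjusted p = 3.83e-21). The class II gene HLA-DPB1 was at 0.0609, 0 and 0 TPM in ResA and 5.04, 8.09 and 6.51 TPM in ResB and listed at 0 in OVCAR4. It was at the floor in ResA and at least 34.02-fold higher in ResB, with an adjusted p of 0.0688 without replicate 1. Its partner chain HLA-DPA1 was at 0, 0 and 0 TPM in ResA and 0.497, 0.899 and 0.681 TPM in ResB (6.53 ± 1.69), with an adjusted p of 0.223 without replicate 1 and none given by DESeq2 without replicate 2 or 3. CIITA, the class II activator, was at 0.145, 0.02299 and 0.0223 TPM in ResA and 0.0486, 0.228 and 0.177 TPM in ResB, and the leukocyte gene PTPRC at 0.171, 0.132 and 0.199 TPM in ResA and 0.0847, 0.0896 and 0.0484 TPM in ResB. HLA genes are near-identical in sequence, so the split of reads among them is uncertain. Interferon-stimulated genes had 9 calls higher and 9 lower of 44. These were 20.5% each way, against 16.2% higher and 16.5% lower of all genes. Lower calls were 3, 6 and 5 and higher calls 8, 3 and 3 without replicates 1, 2 and 3, and 8 and 3 with no replicate block. IFIH1, a sensor of double-stranded RNA, fell from 3.62, 3.497 and 4.27 to 0.554, 0.956 and 1.14 TPM (-2.17 ± 0.31), and IFITM3 rose from 208, 148 and 149 to 504, 533 and 527 TPM (1.60 ± 0.12), where OVCAR4 was at 519 ± 219 TPM (SD, n = 3).

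Platinum transport and detoxification genes differed in 21 of 47 members tested (13 higher, 8 lower), with 14, 7 and 8 higher and 7, 3 and 6 lower without replicates 1, 2 and 3, and 7 and 3 with no replicate block. The 17.0% called lower were close to the 16.5% of all genes, while 27.7% were called higher against 16.2%. The efflux transporter ABCC3 was at 2.23, 1.37 and 2.02 TPM in ResA and 7.82, 10.9 and 8.42 TPM in ResB (2.45 ± 0.22, adjusted p = 2.09e-27), with OVCAR4 at 0.411 ± 0.0554 TPM (SD, n = 3). ANXA4, an annexin linked to platinum export, was at 93.2, 98.03 and 119.5 TPM in ResA and 177, 204 and 246 TPM in ResB (0.98 ± 0.08), and both resistant lines were above OVCAR4 at 28.9 ± 0.398 TPM. The glutathione transferases GSTO1 and GSTA4 were higher by 1.18 ± 0.20 and 1.31 ± 0.22. The metallothioneins MT2A and MT1F, which bind metals, were higher by 1.28 ± 0.10 and 1.47 ± 0.14 with MT2A at 578, 151 and 156 TPM in ResA and 1364, 416 and 392 TPM in ResB, and their copies share sequence. The channel subunit LRRC8D, which takes up cisplatin, and TMEM205 were lower, with log2 fold changes of -0.55 ± 0.09 and -0.84 ± 0.12. The copper transporters SLC31A1, ATP7A and ATP7B, which also carry platinum, were not called (adjusted p = 0.924, 0.831 and 0.0695). SLC31A1 was at 12.3, 33.2 and 33.7 TPM in ResA and 10.7, 34.5 and 37.7 TPM in ResB. Of NRF2 targets, 8 were called higher and 3 lower of 28 (8, 5 and 6 higher and 4, 0 and 3 lower without replicates 1, 2 and 3), while NQO1, HMOX1 and GCLM were not called (adjusted p = 0.508, 0.761 and 0.0801).

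DNA repair genes leaned higher by small amounts, with 16 of 53 called higher and 2 lower. Higher calls were 14, 3 and 8 without replicates 1, 2 and 3 and 5 with no replicate block. Without replicate 2 the 3 of 53 called higher were no larger a share than the 5.90% of all genes, so the excess of calls depended on that replicate. The median log2 fold change of the group did not, at 0.173 with all replicates and 0.176 without replicate 2. XPC, the damage sensor of nucleotide excision repair, had the largest increase, at 8.87, 10.95 and 11.5 TPM in ResA and 19.4, 22.5 and 27.7 TPM in ResB (1.15 ± 0.13, adjusted p = 2.59e-18), with OVCAR4 at 6.05 ± 0.714 TPM (SD, n = 3). FANCD2 was higher by 0.68 ± 0.15 and the recombination gene XRCC2 by 0.96 ± 0.11. FANCF, a core subunit of the Fanconi complex, was lower, at 7.12, 4.997 and 5.17 TPM in ResA and 2.201, 1.85 and 2.87 TPM in ResB (-1.35 ± 0.26). BRCA1 was higher by 0.55 ± 0.10 (adjusted p = 0.0776 without replicate 2), and ERCC1 was not called (adjusted p = 0.584).

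Metabolic genes changed in both directions. Hypoxia and glycolysis genes were called lower for 15 and higher for 7 of 37 (13, 10 and 15 lower and 9, 2 and 3 higher without replicates 1, 2 and 3, 6 and 2 with no replicate block). GAPDH, a glycolytic enzyme often used as a loading control (chr12:6534517-6538371), was at 5503, 5568 and 5308 TPM in ResA and 2099.9, 3128 and 3456 TPM in ResB, a difference of -0.99 ± 0.13 (adjusted p = 1.16e-12) with no overlap. OVCAR4 was at 4989.5 ± 539 TPM (SD, n = 3), near ResA. LDHA, TPI1 and BNIP3 were lower, with log2 fold changes of -0.86 ± 0.09, -0.83 ± 0.11 and -0.94 ± 0.10, whereas the hypoxia gene NDRG1 was higher, at 30.4, 61.98 and 48.9 TPM in ResA and 64.5, 256 and 282 TPM in ResB (1.85 ± 0.37). The unfolded protein and amino acid stress response had 18 calls higher and 6 lower of 33 (20, 8 and 11 higher and 7, 1 and 3 lower without replicates 1, 2 and 3, 6 and 1 with no replicate block). PHGDH, the first enzyme of serine synthesis, was at 80.8, 128 and 118 TPM in ResA and 142, 333 and 342 TPM in ResB (1.21 ± 0.13, adjusted p = 3.36e-18). ASNS was higher by 1.14 ± 0.17, TRIB3 by 1.70 ± 0.24 and ATF4, the factor that drives them, by 0.63 ± 0.10. For PHGDH and ASNS the OVCAR4 means of 281 and 669 TPM were nearer to ResB. The chaperone gene HSPA5 and XBP1, both of the unfolded protein response, were lower, with log2 fold changes of -0.47 ± 0.10 and -0.71 ± 0.11 (adjusted p = 0.107 for HSPA5 without replicate 2). Sterol and fatty acid synthesis genes were called higher for 13 and lower for 3 of 33 (14, 6 and 9 higher without replicates 1, 2 and 3, 2 with no replicate block). The 2 of 33 with no block were close to the 5.96% of all genes, so the excess of calls was not seen there. The group's median was 0.128 with the block and 0.145 without it. INSIG1, a sterol sensor, was at 49.1, 68.4 and 51.2 TPM in ResA and 132, 184 and 164 TPM in ResB (1.48 ± 0.10).

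Some called genes were detected in one resistant line and at the floor in the other, meaning 3 counts or fewer in every library of one line against an average of 100 normalised counts or more in the other. There were 32 such genes at the floor in ResB and 9 at the floor in ResA. Of the 32, 14 had 0 counts in all 3 ResB libraries, and their differences were at least 32.0-fold to at least 902.5-fold. OVCAR4 had a mean of at least 1 TPM for 22 of them. Of the 9 at the floor in ResA, OVCAR4 reached 1 TPM for 0, and 6 were also at 3 counts or fewer in every OVCAR4 library.

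Among the largest increases, MAGED4B, a member of the melanoma antigen family (chrX:52061827-52069272), was at 0, 0 and 0.0496 TPM in ResA and 16.4, 18.9 and 19.8 TPM in ResB. The sum over MAGED4B and its copy MAGED4 was 0.773, 0 and 0.0993 TPM in ResA and 16.4, 18.9 and 19.8 TPM in ResB and the lines did not overlap on the sum either. The calcium channel gene CACNA1A was at 0.0211, 0 and 0 TPM in ResA and 10.2, 2.16 and 1.05 TPM in ResB, high in replicate 1 of ResB. NID2, a basement membrane protein, was at 0.0779, 0.02697 and 0.0131 TPM in ResA and 10.9, 13.3 and 15.6 TPM in ResB (8.52 ± 0.83), and FGF13, a member of the fibroblast growth factor family that acts inside the cell, at 0.338, 0 and 0.0336 TPM in ResA and 4.86, 8.65 and 8.84 TPM in ResB (7.36 ± 1.58). The PI3-kinase subunit PIK3CG was at 0.00872, 0.0452 and 0.0615 TPM in ResA and 3.53, 4.55 and 4.44 TPM in ResB (6.79 ± 0.54), with OVCAR4 at 2.36 TPM and so near ResB. PAPPA, the protease that cleaves IGFBP4, was at 0.0335, 0.0114 and 0.0222 TPM in ResA and 3.47, 1.76 and 1.79 TPM in ResB (6.63 ± 0.52). C3orf55 and FAM109B were higher by 7.78 ± 0.58 and 7.06 ± 0.72. SOCS2, a cytokine signalling inhibitor, was higher by 7.28 ± 1.84 (adjusted p = 0.153 without replicate 2).

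**Figure D3:**
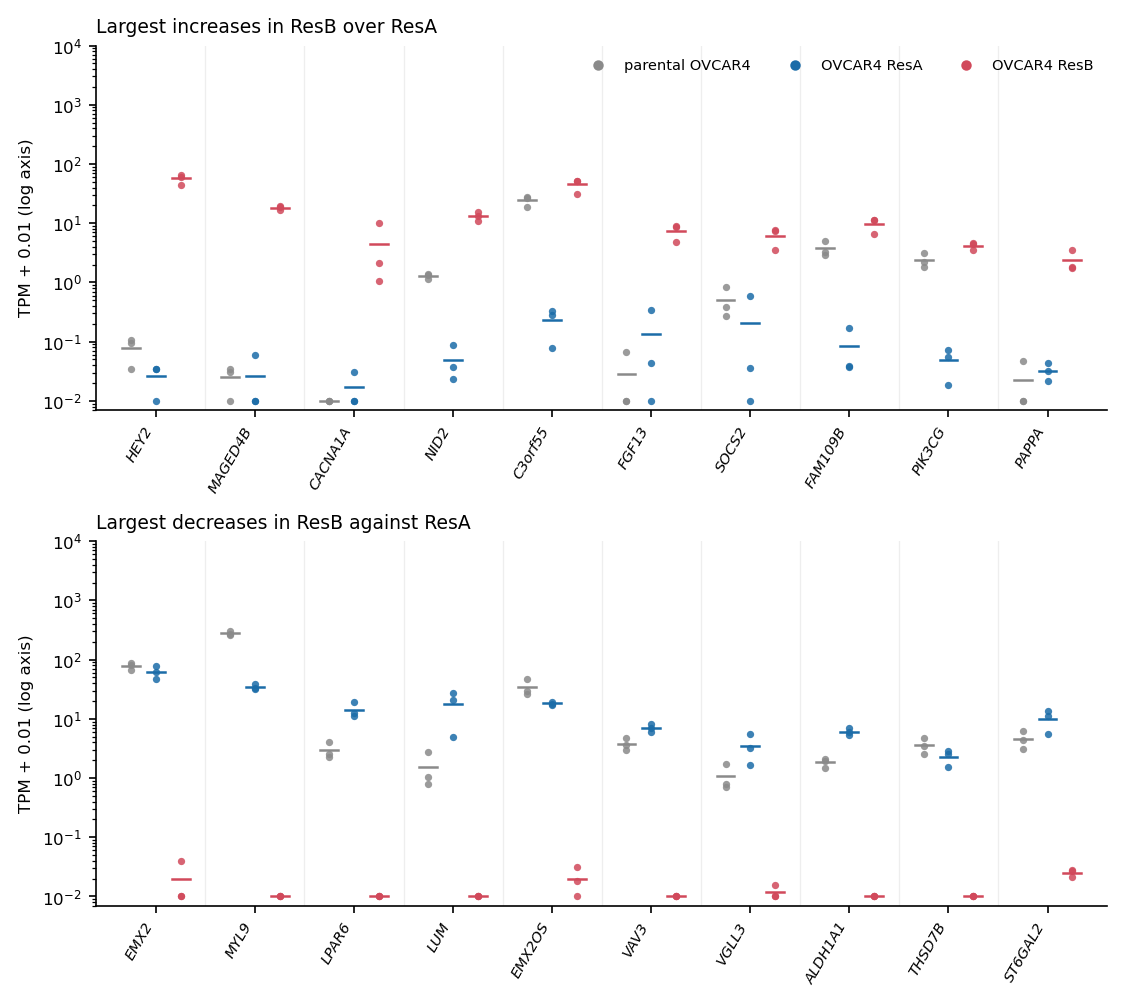
Level of the 10 largest increases and 10 largest decreases by log2 fold change among called genes averaging 100 normalised counts or more, as TPM + 0.01 on a log axis, with 1 point per library and short lines for the means of OVCAR4, ResA and ResB. Genes lost in ResB, such as EMX2 and MYL9, are seen in OVCAR4, whereas HEY2, MAGED4B and CACNA1A are near 0 in OVCAR4 and ResA.

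Among the largest decreases, LUM, a matrix proteoglycan, was at 4.84, 27.2 and 21.1 TPM in ResA and listed at 0 in ResB, at least 173-fold lower (adjusted p = 0.0707 without replicate 2). Its parental level was 1.54 ± 1.08 TPM (SD, n = 3), so ResA was above OVCAR4 and ResB at the floor. ST6GAL2, a sialyltransferase, was at 5.43, 11.2 and 13.4 TPM in ResA and 0.0116, 0.0175 and 0.0165 TPM in ResB and at least 330.4-fold lower. LPAR6, a lysophosphatidic acid receptor, was at 19.1, 12.7 and 10.9 TPM in ResA and listed at 0 in ResB (at least 178-fold). VAV3, a guanine nucleotide exchange factor, was at 6.03, 8.06 and 6.99 TPM and at 0 (at least 107-fold, adjusted p = 0.0582 without replicate 2). VGLL3, a cofactor of TEAD factors, was at 1.63, 3.16 and 5.61 TPM in ResA and 0, 0.00586 and 0 TPM in ResB (at least 172-fold, adjusted p = 0.0533 without replicate 2). THSD7B was at 1.55, 2.82 and 2.51 TPM in ResA and listed at 0 in ResB, with adjusted p = 0.08496 and 0.0774 without replicates 2 and 3. The claudin gene CLDN10, a tight junction gene below the first 10, was at 5.87, 5.93 and 6.47 TPM in ResA and 0, 0.0496 and 0.0234 TPM in ResB and at 22.7 ± 3.96 TPM in OVCAR4 (SD, n = 3), at least 74.5-fold lower in ResB. The fibrillin gene FBN2 was at 1.05, 1.37 and 1.63 TPM in ResA and 0.00725, 0.00545 and 0.00516 TPM in ResB and at 36.3 ± 8.43 TPM in OVCAR4, so that ResA was itself far below the parent.

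By absolute level, the largest decreases were IGFBP3 and GAPDH above, TMSB4X at 11032, 8676 and 8266 TPM in ResA and 5662, 5239 and 5448 TPM in ResB (-0.82 ± 0.09), RPS25 at 3915, 3878 and 3399 TPM in ResA and 2201, 2615 and 2581 TPM in ResB (-0.66 ± 0.10) and ACTG1 at 4367, 4649 and 5359.6 TPM in ResA and 3209.8, 3236 and 3923 TPM in ResB (-0.51 ± 0.09). The largest increases were SLPI, a secreted protease inhibitor of the female tract, at 867, 829 and 530.2 TPM in ResA and 2178, 2330.4 and 2288 TPM in ResB (1.59 ± 0.15, adjusted p = 1.04e-24), then FTL (0.51 ± 0.08), RPL19 (0.57 ± 0.08), RPL26 (0.42 ± 0.09) and BCYRN1 (0.51 ± 0.16, adjusted p = 0.175 without replicate 1). GAPDH, FTL and the ribosomal protein genes have many near-identical pseudogene copies, so their share of reads is uncertain.

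Levels in OVCAR4 were set beside those of both lines for each of the called genes. Mitochondrial rRNA took 5.18%, 14.8% and 11.96% of the counts of the OVCAR4 libraries, more than in replicates 2 and 3 of both resistant lines, and its part in the parental values here and in the regions below was not tested. The parent was nearer to ResA for 3261 of 5218 genes (62.5%) and nearer to ResB for 1957, by mean log2 normalised count. It lay outside the pair for most of them, above both lines for 1612 and below both for 1738, and between them for 1051 nearer ResA and 817 nearer ResB. Of the 1594 genes with at least a 2-fold change, 1039 (65.2%) were nearer ResA. Without replicate 3 the share over called genes was 68.2%.

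The differences were also arranged along the chromosomes, a step added after earlier results were seen. Positions from RefSeq GRCh38.p14 were found for 93.7% of tested genes, and 12065 genes averaging 50 normalised counts or more filled 225 windows of 10 Mb with at least 20 genes each. The median log2 fold change over all of them was -0.01. Windows departed from it in blocks: 36 had a median beyond 0.3 in size, 22 above and 14 below, and all 36 had the same sign in each of the 3 same-numbered pairs. The windows were picked by the fit to these same pairs, so the shared sign was largely set by the choice and is no separate support. The lowest window median was -0.70 and the highest 0.71.

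**Figure D4:**
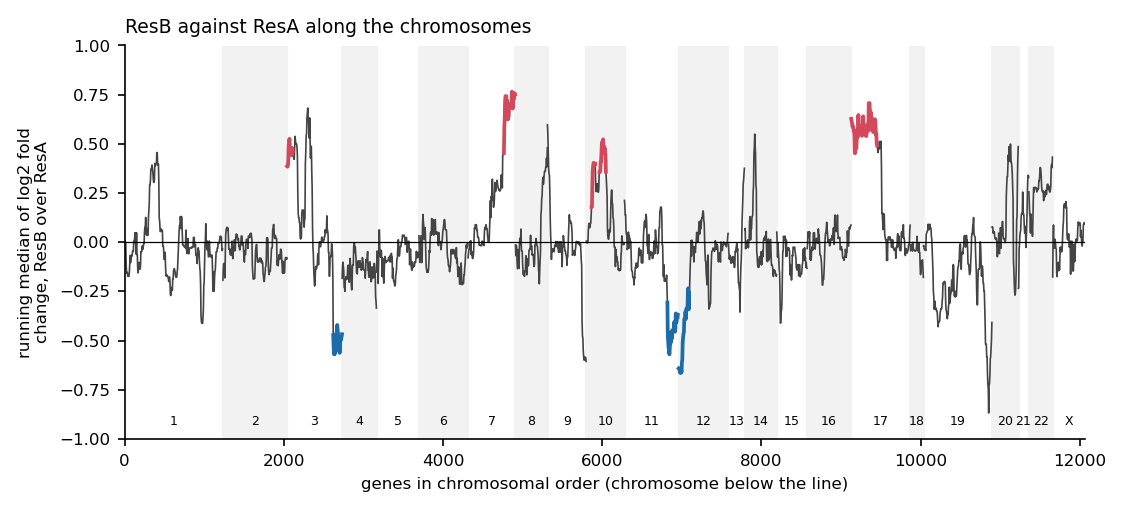
Running median of the log2 fold change (ResB over ResA) over 41 consecutive genes in order along each chromosome, with 8 regions of at least 2 touching windows in colour. Coloured stretches are raised on chromosomes 3, 7, 10 and 17 and lowered on chromosomes 3, 11 and 12, and uncoloured stretches, such as those on chromosomes 9 and 19, also depart from 0.

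Joining touching windows gave 8 regions on chromosomes 3, 7, 10, 11, 12 and 17. The largest, chromosome 17 from 0 to 40 Mb, held 329 genes with a median of 0.58, of which 74.8% were called higher and 93.3% lay above 0. Chromosome 7 from 120 to 160 Mb held 148 genes with a median of 0.70, 77.7% of them called higher. Chromosome 3 from 0 to 20 Mb (73 genes, median 0.47) and chromosome 10 from 20 to 40 Mb (52 genes, 0.37) and 60 to 80 Mb (87 genes, 0.43) were raised too. Lowered were chromosome 3 from 170 to 200 Mb (113 genes, -0.50, 63.7% called lower), chromosome 11 from 100 to 130 Mb (136 genes, -0.46, 60.3%) and chromosome 12 from 0 to 30 Mb (131 genes, -0.47, 59.5%). The sign of each region's median was kept with limma on TPM, edgeR, TMM scaling, no replicate block and each replicate left out. These fits reuse the libraries on which the regions were chosen, so the kept signs are no separate support. DNA was not measured here, and copy number in these lines is not given in the sources used here.

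Set against OVCAR4, the region medians departed farther in ResB than in ResA. On chromosome 17 the median was -0.12 for ResA over OVCAR4 and 0.48 for ResB over OVCAR4, and on chromosome 12 it was 0.04 and -0.40. The raised part of chromosome 7 differed from the parent in both lines, in opposite directions, at -0.25 for ResA and 0.39 for ResB, and the lowered part of chromosome 3 did so at 0.19 and -0.39. Both comparisons share the OVCAR4 libraries, so they are given side by side only.

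**Figure D5:**
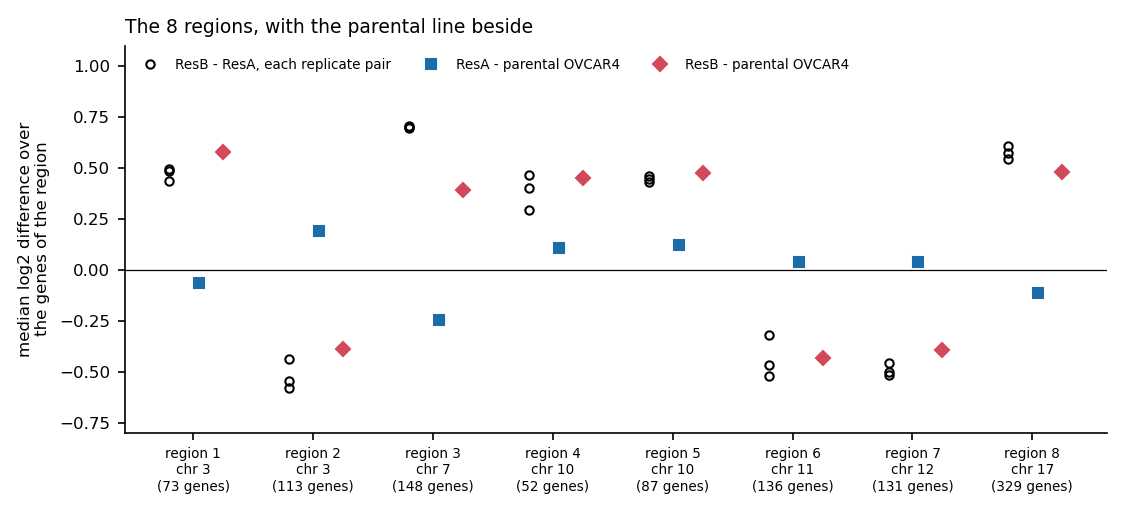
Median log2 fold change of the genes in each of the 8 regions: ResB over ResA in each same-numbered pair, and ResA over OVCAR4 and ResB over OVCAR4. The 3 pairs, on which the regions were chosen, lie together in every region, and ResB lies farther from OVCAR4 than ResA does in 8 of 8.

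These regions held 1069 genes, 8.86% of those placed in windows, and 16.4% of the 4639 called genes used in windows. Inside them 71.2% of genes were called and outside 35.3%, while a change of at least 2-fold was called for 14.5% and 8.27%. The regions were picked by the fold changes of this same fit. The higher shares inside were therefore largely set by that choice and are no separate support. Most genes inside moved by less than 2-fold. As the regions held only 8.86% of the genes, most changes of at least 2-fold still lay outside them. HEY2, EMX2, MYL9, NOTCH3, LGR5, KRT19 and IGFBP3 were outside all 8 regions. A window past the cut with no touching neighbour past it joined no region. NOTCH3 lay in such a window, chromosome 19 from 10 to 20 Mb, with a median of -0.31. Several genes named above lay inside one, and their differences can be read against the median over the other genes of their window, the gene itself left out. GAPDH, at -0.99, and TPI1, at -0.83, lay in a window of chromosome 12 with a median of -0.60 over the other genes, and the HER2 gene ERBB2, at 0.48, in one of chromosome 17 with a median of 0.57 (its adjusted p was 0.0948 without replicate 2). XPC, at 1.15, and FANCD2, at 0.68, shared a window of chromosome 3 with a median of 0.48. XRCC2, at 0.96, and INSIG1, at 1.48, lay on chromosome 7 where the median was 0.70. RPS25 and TAGLN shared a window of chromosome 11, with a median over the other genes of -0.48 for each, and differed by -0.66 and -3.24. HES1 and SKIL lay in the lowered part of chromosome 3, where the medians over the other genes of their windows were -0.49 and -0.68, and differed by -1.93 and -1.97. Others ran against their surroundings. LHX1, a Müllerian transcription factor on chromosome 17, was lower, with a log2 fold change of -2.50 ± 0.30 where the other genes of the window had a median of 0.57, and the filamin gene FLNC on chromosome 7 was at the floor in ResB, at least 37.9-fold lower, where the other genes of the window had a median of 0.72. Of the 18 called DNA repair genes, 4 lay in these regions, and of the 22 called hypoxia and glycolysis genes, 5 did.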

How the data were processed

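Per the study's methods, libraries were made with the KAPA mRNA HyperPrep kit, sequenced on an Illumina NextSeq with the same pool over several runs, and quantified with nf-core/rnaseq and Salmon. The submitters' processing notes also name DRAGEN, with no version, and GRCh38. The authors deposited estimated counts per gene (88.6% of values whole in the 6 libraries) and TPM for 29744 genes. Strand use is not given in the sources used here, so antisense, overlapping and near-identical genes are uncertain. Depth was 22.3 M to 35.8 M counts a library, which limits precision for genes near the floor of 3 counts.

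Expected counts were rounded and tested with DESeq2 1.42.0 (R 4.3.3), Wald test, replicate number plus line as terms, Benjamini-Hochberg adjusted p under 0.05, without a filter before fitting. The independent filtering that DESeq2 applies to low-count genes after fitting was left on at 0.05. Genes tested are those that were given an adjusted p. Log2 fold changes are ResB over ResA. Levels are deposited TPM. The block rests on a check: same-numbered libraries deviated together from their line means, with correlations of 0.719, 0.529 and 0.569 for replicates 1, 2 and 3 over 14601 genes, and 0.832, 0.690 and 0.671 over 11387 genes with a mean count of at least 100. Alternatives, 13 in all, included edgeR 4.0.16, TMM, no block, a minimum of 10 counts, 9 or 33 libraries, no rRNA genes, each replicate left out, and limma 3.58.1 on log2(TPM + 1) and log2(TPM + 0.1). Genes could be named if they were among the 10 largest increases or decreases by log2 fold change of called genes averaging 100 normalised counts or more, with 1 sign in all 3 pairs, among the 5 largest increases or decreases in mean TPM outside mitochondrial and ribosomal RNA, members of 38 gene lists, or close copies of these. Members and lists were chosen with earlier results of these data known.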

Additional observations from a re-analysis of the deposited data

How the results depend on the processing

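The number of calls depended on the replicate block. With no replicate block 2094 genes were called, 965 higher and 1129 lower, against 5218, 2585 and 2633 with it. Fitting all 9 OVCAR4-family libraries called 2262 (1074 higher, 1188 lower), and all 33 libraries 2939 (1301 higher, 1638 lower). Leaving out 1 replicate number gave 1847 to 4308 calls, 872 to 2075 higher, 975 to 2233 lower and 965 to 1366 with at least a 2-fold change, the lowest each time without replicate 2. With limma, lower calls were 1710 at a pseudocount of 0.1 and 1653 with no filter, and 2-fold calls 867 at a pseudocount of 1 and 809 with no filter. Genes at the floor numbered 5 in ResA and 21 in ResB with a floor of 1 count, 51 in ResB with a mean count of at least 50, and 3 and 14 with at least 200. The share of called genes whose OVCAR4 level lay nearer ResA was 62.5% and ranged from 60.7% to 68.2% with 1 replicate left out. The cause of these changes was not tested. Signs of the 8 regions, a grouping chosen on these same libraries after seeing the data, changed in 0 of 56 values, which is no separate support. Of 155 called genes named in the text, 0 changed sign under any of the 13 alternatives, 102 stayed called under all that gave a value, and 129 stayed called with no replicate block. Among uncalled genes, log2 fold changes near 0 changed sign. CDH1 was at 0.01044 with limma at a pseudocount of 1 with or without the filter, 0.01036 at 0.1, and -0.04171 to 0.008457 with 1 replicate left out. SLC31A1 was at 0.0121 at a pseudocount of 1 with or without the filter, 0.009377 at 0.1, and -0.08565 to 0.02525 with 1 left out. With 1 replicate left out, CDKN1A ranged from -0.3754 to 1.136, MKI67 from -0.08245 to 0.2714, RBPJ from -0.1268 to 0.03024 and THY1 from -1.887 to 0.1878.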

Other observations

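Respiratory chain subunits were called lower for 33 and higher for 3 of 75, with a median of -0.25. Lower calls were 23, 13 and 32 without replicates 1, 2 and 3. With no replicate block they were 4 of 74, a smaller share than the 6.97% of all genes. The subunits summed to 42052, 36718 and 32108 TPM in ResA and 31918.5, 32417 and 31563 TPM in ResB, so the lines were close in replicate 3. Proliferation genes were called higher for 13 and lower for 7 of 40 (11, 4 and 6 higher and 7, 2 and 3 lower without replicates 1, 2 and 3, 0 and 1 with no replicate block), and FOXM1, a driver of mitotic genes, was lower, with a log2 fold change of -0.65 ± 0.10 in a lowered window of chromosome 12. TOP2A was at 257, 175 and 203 TPM in ResA and 388, 262 and 272 TPM in ResB (0.50 ± 0.10), and MKI67 was not called (adjusted p = 0.748).

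HOX genes, which mark position along the body axis, had 3 calls higher and 5 lower of 28 (1, 0 and 0 higher and 4, 3 and 4 lower without replicates 1, 2 and 3, 1 and 2 with no replicate block). These were 10.7% higher and 17.9% lower, against 16.2% and 16.5% of all genes, so the group as a whole did not stand out. A change of at least 2-fold was called for 0 higher and 3 lower. HOXA9, a gene of the Müllerian tract, was at 10.04, 2.702 and 2.995 TPM in ResA and 4.84, 0.946 and 0.632 TPM in ResB (-1.59 ± 0.37), and HOXA10, another, at 8.88, 5.28 and 7.71 TPM in ResA and 3.29, 1.63 and 2.23 TPM in ResB (-1.63 ± 0.26). HOXC10 was at 7.51, 9.92 and 10.6 TPM in ResA and 2.53, 2.74 and 3.302 TPM in ResB (-1.75 ± 0.25). Collagens had 7 calls higher and 5 lower of 25 (4, 3 and 4 higher and 5, 2 and 2 lower without replicates 1, 2 and 3, 3 and 4 with no replicate block), with COL18A1 at 103, 141 and 118 TPM in ResA and 58.1, 92.5 and 93.9 TPM in ResB (-0.62 ± 0.11). Of p53 targets and cell cycle inhibitors, 7 were called higher and 4 lower of 29 (6, 7 and 3 higher and 4, 1 and 1 lower without replicates 1, 2 and 3, 3 and 2 with no replicate block). CDKN1A, the p21 gene, was at 25.5, 30.9 and 24.2 TPM in ResA and 25.8, 18.5 and 113 TPM in ResB and was not called (adjusted p = 0.735), with replicate 3 of ResB above the others. The death receptor FAS was at 6.07, 6.42 and 9.45 TPM in ResA and 11.3, 13.3 and 16.8 TPM in ResB (0.89 ± 0.17). BCL2 and IAP family genes had 3 calls higher and 6 lower of 26 (2, 1 and 0 higher and 5, 2 and 2 lower without replicates 1, 2 and 3, 0 and 2 with no replicate block), with BMF at 1.33, 1.59 and 1.91 TPM in ResA and 0.194, 0.2896 and 0.471 TPM in ResB (-2.40 ± 0.40). All calls made up 34.6% of this group, near the 32.8% of all genes.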
